A study of Mus musculus with 15 samples.

Results

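The major histocompatibility complex (MHC) class II group described here holds 7 genes of the 22350 protein-coding genes annotated on mouse chromosomes 1 to 19 and X. They were chosen by name, for their place in class II antigen presentation, and not by their values. They are the chain genes H2-Aa, H2-Ab1 and H2-Eb1, the peptide loading genes H2-DMa and H2-DMb1, the invariant chain gene Cd74, and Ciita, which codes for the coactivator of the others. ChIP-seq of H3K27Ac, H3K4Me1 and H3K27Me3 was followed through the conversion of C10 cells into macrophage-like cells. C10 is a single clone of the HAFTL pre-B cell line that carries C/EBPα fused to the estrogen receptor hormone-binding domain and GFP, so every group shares that transgene. Induced cells received 100 nM β-estradiol with IL-3 and CSF-1 (10 nM), control cells the ethanol solvent (0.1%), as the sample labels give the doses (the methods of the study give that of β-estradiol in another unit), and the time points were 0, 3, 12, 24 and 48 hours post-induction (hpi). With 15 libraries in all, 1 for each mark at each time, no difference between times has a replicate and none was tested.

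Class II molecules present peptides from engulfed proteins to CD4+ T cells. B cells, macrophages and dendritic cells carry them, and their genes share a promoter module of S, X and Y boxes. RFX, CREB and NF-Y proteins bind that module, but transcription depends on CIITA, which does not bind DNA itself and is made from separate promoters in different cell types. H3K27Ac marks active promoters and enhancers, H3K4Me1 marks enhancers whether active or poised, and H3K27Me3 marks regions held silent by Polycomb proteins.

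Exact letters of the X and Y boxes of the module, but none of the S box, were looked for in the mm9 reference genome. The search ran from 250 bases before to 50 bases from each start on, on both strands. Sequences are shown for the 3 chain genes, which hold letters of the module, and for the only Ciita start with a gamma-activated-site match. They are read 5′ to 3′ on the strand of the gene, numbered from the start (base -1 is the base before it), and cover no annotated exon. Capitals mark the Y box (CTGATTGG, or its core ATTGG read as CCAAT on the other strand), the X1 letters (ACAGATG), the X2 letters (TGACGTCA) and, for Ciita, the gamma-activated site (TTCNNNGAA).
H2-Aa, chr17:34424812-34424932, minus strand, bases -160 to -40: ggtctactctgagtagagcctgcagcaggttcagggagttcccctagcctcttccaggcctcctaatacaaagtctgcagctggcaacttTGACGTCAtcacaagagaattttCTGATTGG
H2-Ab1, chr17:34400025-34400145, plus strand, bases -160 to -40: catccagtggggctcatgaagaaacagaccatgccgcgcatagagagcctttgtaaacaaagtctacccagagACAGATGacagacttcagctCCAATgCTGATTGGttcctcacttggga
H2-Eb1, chr17:34442668-34442788, plus strand, bases -160 to -40: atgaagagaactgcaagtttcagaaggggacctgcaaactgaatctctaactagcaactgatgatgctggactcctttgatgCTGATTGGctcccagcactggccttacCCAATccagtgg
Ciita start 3, chr16:10489676-10489836, plus strand, bases -200 to -40: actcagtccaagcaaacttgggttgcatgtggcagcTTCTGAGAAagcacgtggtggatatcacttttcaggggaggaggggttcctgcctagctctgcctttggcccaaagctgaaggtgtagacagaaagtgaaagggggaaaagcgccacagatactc
The Y box began 47 bases upstream of H2-Aa, 61 upstream of H2-Ab1 and 78 upstream of H2-Eb1, and 4.52% of all gene starts held these 8 letters. The X2 letters stood 70 bases upstream of H2-Aa (2.34% of all starts) and the X1 letters 87 upstream of H2-Ab1 and, on the opposite strand and outside the stretch shown, 228 upstream of H2-Aa (4.25% of all starts). No match to any of the 7 strings searched was found at H2-DMa, H2-DMb1 or the first Ciita start. Cd74 had 1 match to the 5-letter core, 204 bases upstream, a string that 37.7% of all starts held, and the second Ciita start had 1, 243 bases upstream. The PU.1 letters GAGGAAGT (3.10% of starts) and the C/EBP letters TTGCNNAA (10.3%) were not in these windows of any member, and gamma-activated-site letters were held by 7.85% of all starts. The core ATTGG lies within each full Y box, so those matches overlap. A match is a description of letters and not of a bound site, and boxes with other letters were not searched for.

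The values below are tag counts. A tag is a 36 bp uniquely aligned read, of which 1 per position was kept, and the libraries of each mark were thinned to the smallest of that mark (15216488 tags for H3K27Ac, 10913733 for H3K4Me1 and 15338280 for H3K27Me3, from libraries deposited with 11041458 to 31557475 tags). Counts were taken in 3 kb centred on the start that most transcripts of a gene share or, with ties, the most upstream of these. At H2-Aa, H2-Eb1, H2-DMa and H2-DMb1 each transcript had a start of its own, so the most upstream was used. The mean of the genome's mappable 3 kb windows was 18.28 tags for H3K27Ac, 13.11 for H3K4Me1 and 18.42 for H3K27Me3. A window was enriched at 34, 27 and 34 tags or more, respectively (Poisson upper tail below 0.001). A change was called when counts differed at least 2-fold and by at least 10 tags. Shares of all starts called or enriched are of the 21890 gene starts with any tag, and the shares holding letters above are of all 22350. All 95% intervals are exact (Poisson for counts, conditional binomial for ratios) and cover counting error only. The share of H3K27Ac tags in enriched 1 kb bins ran from 63.2% at 3 hpi to 78.1% at 24 hpi. Scaling the libraries by bins enriched at all 5 times, rather than by total tags, raised every log2 change of H3K27Ac from 0 to 48 h by 0.41, and scaling H3K4Me1 by background bins raised it by 0.78. Background bins shifted the log2 changes of H3K27Ac by -0.35 from 0 to 3 h and by 0.77 from 0 to 24 h. With starts set in the same way, H3K27Ac was called lower from 0 to 48 h at 6 of 7 pre-B cell markers and higher at 7 of 7 macrophage markers (8.73% and 5.74% of all gene starts). Their summed counts went from 7867 to 2607 and from 278 to 3648 tags. Of 5 dendritic cell markers, Itgax (14 to 184 tags) and Flt3 (13 to 31, under the cut-off at both times) were called higher and Ccr7 (107 to 28) lower. Zbtb46 had 4 tags at 0 h and 3 at 48 hpi, and Clec9a 22 and 16. The 5 T cell markers held 40 tags in sum at 0 h and 37 at 48 hpi, under the mean of the genome.

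H3K27Ac fell within 3 h at H2-Aa, H2-Eb1, H2-DMa and Ciita. From 0 to 3 hpi it was called lower at these 4 of 7 members and higher at 0 of 7, against 1.83% of all gene starts called lower and 3.37% called higher. The median log2 change from 0 to 3 h, with 1 tag added to each count, was -1.0 over the members and 0.16 over all gene starts. By 48 hpi the invariant chain gene Cd74 had risen to 2.85-fold over its starting count, while H2-Aa, H2-Ab1 and H2-DMb1 were called lower. In such a cell population, a mark carried by fewer cells and a weaker mark in every cell cannot be told apart.

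Among the chain genes, H2-Ab1 (start at chr17:34400185), which codes for the beta chain of the A molecule, kept its H3K27Ac through 12 hpi. It had 127 tags at 0 h, 137 at 3, 128 at 12, 83 at 24 and 49 at 48 hpi, so the first 3 counts lay within each other's intervals and the last was 2.59-fold below the first (log2 change -1.37, 95% interval -1.88 to -0.89). In the 1 kb around the start that change was not called (34 to 21 tags, log2 -0.70, -1.55 to 0.13). H2-Eb1 (start at chr17:34442828), the beta chain gene of the E molecule, instead went from 125 tags to 54 at 3 hpi (2.31-fold lower, log2 -1.21, -1.70 to -0.74) and then stood at 76, 88 and 77 tags. Neither the later steps nor the change over the whole course were called (log2 -0.70, -1.13 to -0.28, from 0 to 48 h), but in 1 kb the change from 0 to 48 h was (65 to 30 tags, log2 -1.12, -1.79 to -0.47). H2-Aa (start at chr17:34424772, minus strand), the alpha chain partner of H2-Ab1, was the weakest of the class II structural genes, at 30, 12, 8, 12 and 9 tags. Its count at 0 h was already under the 34 tags needed for enrichment, and it was 3.33-fold lower at 48 hpi (log2 -1.74, -3.0 to -0.63). The read alignment allowed no mismatch to the reference strain, and the strain of the cells is not given in the sources used here, so counts at these highly polymorphic genes are better compared between times than between genes.

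**Figure D1:**
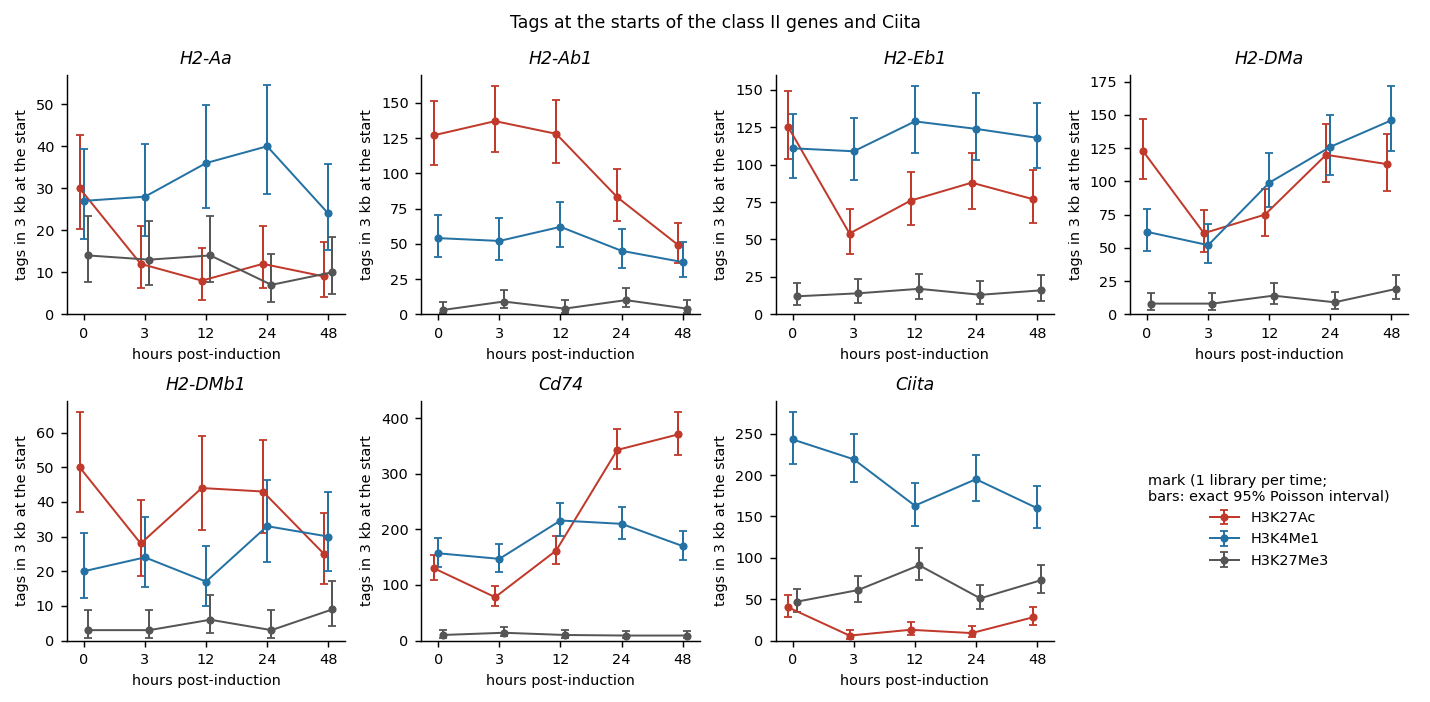
Tags in 3 kb at the start of each of the 7 genes (vertical axis, a separate scale for each gene) against hours post-induction, for H3K27Ac, H3K4Me1 and H3K27Me3, 1 library per point, with exact 95% Poisson intervals. H3K27Ac dropped at 3 hpi at H2-Aa, H2-Eb1, H2-DMa and Ciita, held at H2-Ab1 until 12 hpi, and rose to 371 tags at Cd74.

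The DM molecule, made of the H2-DMa and H2-DMb1 products, exchanges the invariant chain fragment for peptide. H2-DMa (start at chr17:34272127) was called lower at 3 hpi, with 123 tags of H3K27Ac at 0 h, 61 at 3, 75 at 12, 120 at 24 and 113 at 48 hpi. Its count at 3 hpi was 2.02-fold below that at 0 h, and those at 24 and 48 hpi lay within the interval of the 0 h count (102 to 147 tags). H2-DMb1 (start at chr17:34290017) had 50, 28, 44, 43 and 25 tags, and its call from 0 to 48 h rested on a ratio of exactly 2.00 (log2 -1.0, -1.75 to -0.28). The call was lost in 6 kb, with 52 and 46 tags (log2 -0.18), and with scaling by background bins (1.88-fold). In 1 kb the loss was larger (40 to 17 tags, log2 -1.23, -2.15 to -0.38), and without thinning it was 2.07-fold. In its start window 81.2% of all 36-mers occur once in the genome, against 96.4% to 100.0% at the starts of the other members, and its close relative H2-DMb2 lies next to it.

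Cd74, whose product chaperones class II chains out of the endoplasmic reticulum, was the only member called higher from 0 to 48 h, beside 3 of 7 called lower, where 5.74% of all gene starts were called higher and 8.73% lower. It had 130 tags at 0 h, 78 at 3, 162 at 12, 343 at 24 and 371 at 48 hpi (log2 change 1.51, 1.22 to 1.81). Its count at 3 hpi was 0.600 of that at 0 h (log2 -0.74, -1.16 to -0.32), which was not called, and from 3 to 24 hpi Cd74 was the 1 of 7 members called higher, with 0 of 7 called lower (4.08% and 7.14% of all starts). With scaling by background bins, all members but H2-Ab1 were called higher in that interval, as were 28.3% of all starts. In the 1 kb centred on the start the gain was steeper, from 14 tags to 16, 25, 70 and 94, which is 6.71-fold from 0 to 48 h. In 6 kb it was 1.54-fold (395, 239, 494, 811 and 610 tags) and so under the threshold. The wider window took in part of a region inside the gene that was already acetylated at 0 h.

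Over all 7 members the median log2 change of H3K27Ac from 0 to 48 h was -0.69, and it was -0.19 over all gene starts. Enrichment was met by 6 of 7 members at 0 h (47.1% of all starts), by 4 at 3 hpi (47.5%), by 5 at 12 (47.9%) and at 24 hpi (47.5%), and by 4 at 48 hpi (48.0%). H2-Ab1, H2-Eb1, H2-DMa and Cd74 were enriched in all 5 libraries. With the libraries scaled by bins enriched at all times, H2-Aa was the 1 member still called lower at 48 hpi (4.54% of all starts) and 3 of 7 were called lower at 3 hpi (1.36% of all starts), where H2-DMa was 1.85-fold lower. With scaling by background bins, 6 of 7 were called lower at 3 hpi (3.65% of all starts). H2-Ab1 stood at 1.08 times its 0 h count at 3 hpi with total-tag scaling, 1.18 times with the first of these scalings and 0.844 times with the second.

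**Figure D2:**
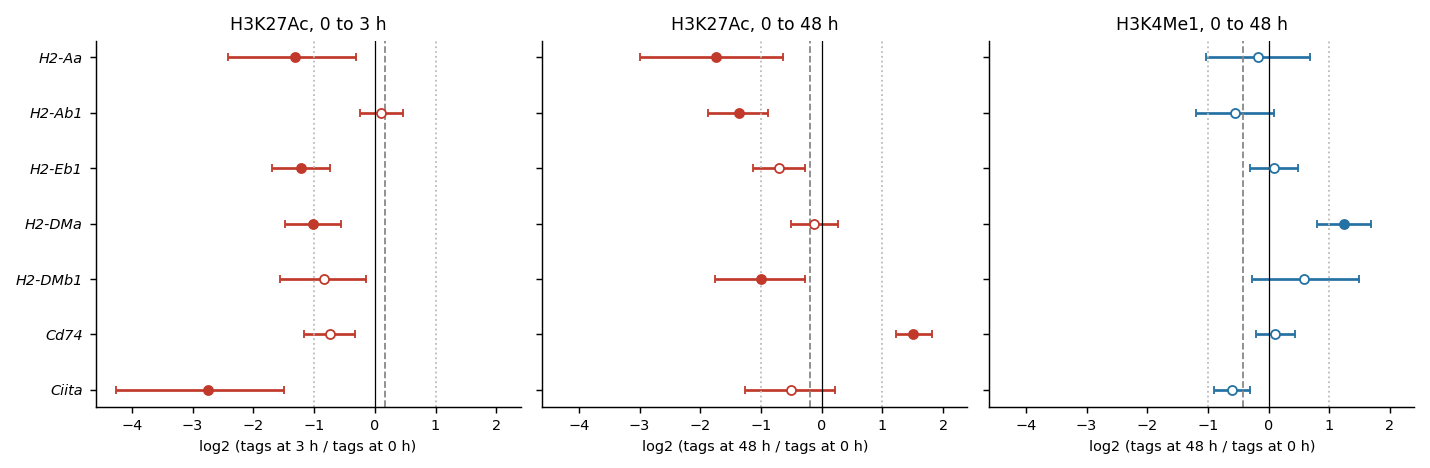
Log2 ratios of tags at the 7 starts (horizontal axis) for H3K27Ac from 0 to 3 h, H3K27Ac from 0 to 48 h and H3K4Me1 from 0 to 48 h, with exact 95% intervals from counting error. Filled points met the call rule, dotted lines mark 2-fold, and the dashed line is the median over all gene starts (0.16, -0.19 and -0.42). Ciita lay lowest at 3 hpi, at -2.74, and Cd74 highest at 48 hpi, at 1.51.

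Ciita had the steepest early loss. Its second start (chr16:10488392) stands for 4 transcripts that begin at 3 joined positions. There H3K27Ac went from 40 tags to 6 at 3 hpi, 6.67-fold lower (log2 -2.74, -4.27 to -1.49), then to 13, 9 and 28 tags. The count at 48 hpi was 3.11-fold over that at 24 hpi (log2 1.64, 0.51 to 2.91), a call that scaling by background bins ended (1.94-fold), and the change from 0 to 48 h was not called (log2 -0.51, -1.27 to 0.22). The start met the enrichment cut-off at 0 h and at no later time.

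The 3 annotated Ciita starts differed in level. The first (chr16:10480237), the most upstream, carried 5, 4, 4, 2 and 3 H3K27Ac tags in 3 kb and was not enriched at any time. The third (chr16:10489876), 1 transcript placed 9639 bases from the first, had 43, 6, 13, 7 and 29 tags, but its 3 kb window overlaps that of the second start, which lies 8155 bases from the first. In windows of 1 kb, which do not overlap, the second start had 19, 1, 3, 3 and 7 tags and the third 23, 3, 7, 2 and 11. Both thus fell at 3 hpi, and in these narrower windows both were also called lower from 0 to 48 h (log2 -1.44, -2.93 to -0.13, at the second, and -1.06, -2.25 to 0.030, at the third, an interval that includes no change). The files do not say which of these starts corresponds to which of the known Ciita promoters.

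At 3 hpi H3K4Me1 stood between 0.839 and 1.20 times its 0 h count in 3 kb at the 7 starts. At the second Ciita start it was the highest of all members at 0 h, 243 tags or 18.5-fold over the mean of the genome, and it then stood at 219, 163, 195 and 160 tags. The change from 0 to 48 h (log2 -0.60, -0.90 to -0.31) was not called and was 0.17 with scaling by background bins. At 3 hpi, when 0.150 of the H3K27Ac count was left there, H3K4Me1 stood at 219 of 243 tags, and at 77 of 105 in 1 kb (log2 -0.45, -0.89 to -0.009). The first start had 18, 10, 7, 5 and 6 H3K4Me1 tags and the third 162, 145, 107, 131 and 96.

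Among the other members, H2-DMa was called for H3K4Me1. It rose from 62 tags to 52, 99, 126 and 146 (2.35-fold, log2 1.24, 0.80 to 1.69) and was the 1 of 7 members called higher, with 0 called lower, where 3.98% of all starts were called higher and 8.66% lower. In 6 kb that call was lost (106 to 200 tags) and H2-DMb1 was called higher instead (27 to 71 tags, log2 1.39, 0.74 to 2.09). The H3K27Ac count of H2-DMa in 3 kb was 113 tags at 48 hpi, not above that at 0 h, but its position shifted. In the 1 kb just upstream of the start both marks rose, H3K27Ac from 18 to 51 tags and H3K4Me1 from 21 to 73. In the 1 kb just downstream H3K27Ac fell from 93 to 39. For H3K4Me1, Cd74 had 157, 147, 216, 210 and 170 tags, H2-Eb1 111, 109, 129, 124 and 118, and H2-Ab1 54, 52, 62, 45 and 37. H2-Aa had 27, 28, 36, 40 and 24 tags and H2-DMb1 20, 24, 17, 33 and 30. Enrichment was met by 6 of 7 members at 0 h and 6 of 7 at 48 hpi (45.6% and 41.4% of all starts), H2-DMb1 being the exception at the first time and H2-Aa at the last. The median log2 change from 0 to 48 h was 0.087 over the members and -0.42 over all starts.

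Among the starts of the 7 members, H3K27Me3 was enriched at that of Ciita. The second Ciita start was enriched in all 5 libraries, with 47, 61, 91, 51 and 73 tags, while the starts of the other 6 members held between 3 and 19 tags and none of them was enriched at any time, so 1 of 7 members was enriched at 0 h and at 48 hpi (16.5% and 18.8% of all starts). The change at Ciita from 0 to 48 h was log2 0.64 (0.087 to 1.20) and was not called. H2-DMa, at 8, 8, 14, 9 and 19 tags, met the call rule as the 1 of 7 called higher, with 0 called lower (2.24% and 2.53% of all starts), but its interval reached below no change (log2 1.25, -0.010 to 2.65), it stayed near the mean of the genome, and the call was lost without thinning.

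The gene bodies with 20 kb on each side formed 4 loci of 100 windows of 3 kb. The 30 windows of the Ciita locus (chr16:10460237-10550236) showed the downstream edge of the Polycomb mark, and its first window already held 60 tags at 0 h. In the 23 windows up to the end of the gene, H3K27Me3 ran between 16 and 93 tags and 18 of them were enriched at all 5 times, where 14.0% of the genome's 3 kb windows were enriched at 0 h and 24 of the 100 locus windows were. The sum over these 23 windows was 1090 tags at 0 h and 1126 at 48 hpi, a ratio of 1.03. The counts dropped before the end of the gene, where its last 3 windows held 16, 29 and 24 tags at 0 h and the window before them 64. The first window over the neighbouring gene Dexi held 10, 7, 11, 10 and 9 tags. Over the same 23 windows H3K4Me1 went from 1195 tags to 1024 at 3 hpi, 534 at 12, 554 at 24 and 476 at 48 hpi, 2.51-fold lower, and H3K27Ac from 334 to 134, 160, 98 and 189. With scaling by background bins the H3K4Me1 sum went from 1195 to 815 tags, 1.47-fold lower, and that of H3K27Me3 from 1090 to 1273. These windows share fragments and a gene, and are not replicates.

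Inside Ciita the largest loss of H3K4Me1 tags lay 21.3 kb downstream of the second start, in a window with exons of the gene (chr16:10508237-10511236, 99.8% of 36-mers unique). There H3K4Me1 had 261 tags at 0 h, 261 at 3, 114 at 12, 69 at 24 and 53 at 48 hpi, 4.92-fold lower (log2 -2.30, -2.75 to -1.87) or 2.88-fold with scaling by background bins, and H3K27Ac had 38, 18, 9, 9 and 8 (log2 -2.25, -3.56 to -1.13). At 0 h the H3K4Me1 count of this window lay within the interval of that at the second start (243 tags, 213 to 276). A second intragenic window, 6.34 kb downstream (chr16:10493237-10496236, intron), went from 63 H3K4Me1 tags at 0 and 3 hpi to 7, 21 and 13. In all, 14 of the 30 Ciita windows were called lower for H3K4Me1 and 0 higher (5.02% and 5.71% of the genome's windows). When the libraries were scaled by background bins, 7 were called lower and 2 higher (1.94% and 12.8% of all gene starts). For H3K27Ac 8 windows were called lower by 3 hpi and 4 by 48 hpi (2.07% and 3.25% of the genome's windows). In the 23 windows up to the end of the gene, H3K27Ac was enriched in 3 at 0 h, and the mean of the 23 was 0.794 of the genome's. Most of the 8 windows called lower by 3 hpi thus had counts under the cut-off at 0 h. The window over the start of Clec16a, the gene beyond Dexi, held 159 H3K27Ac tags at 0 h and 133 at 48 hpi, within 1.20-fold.

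**Figure D3:**
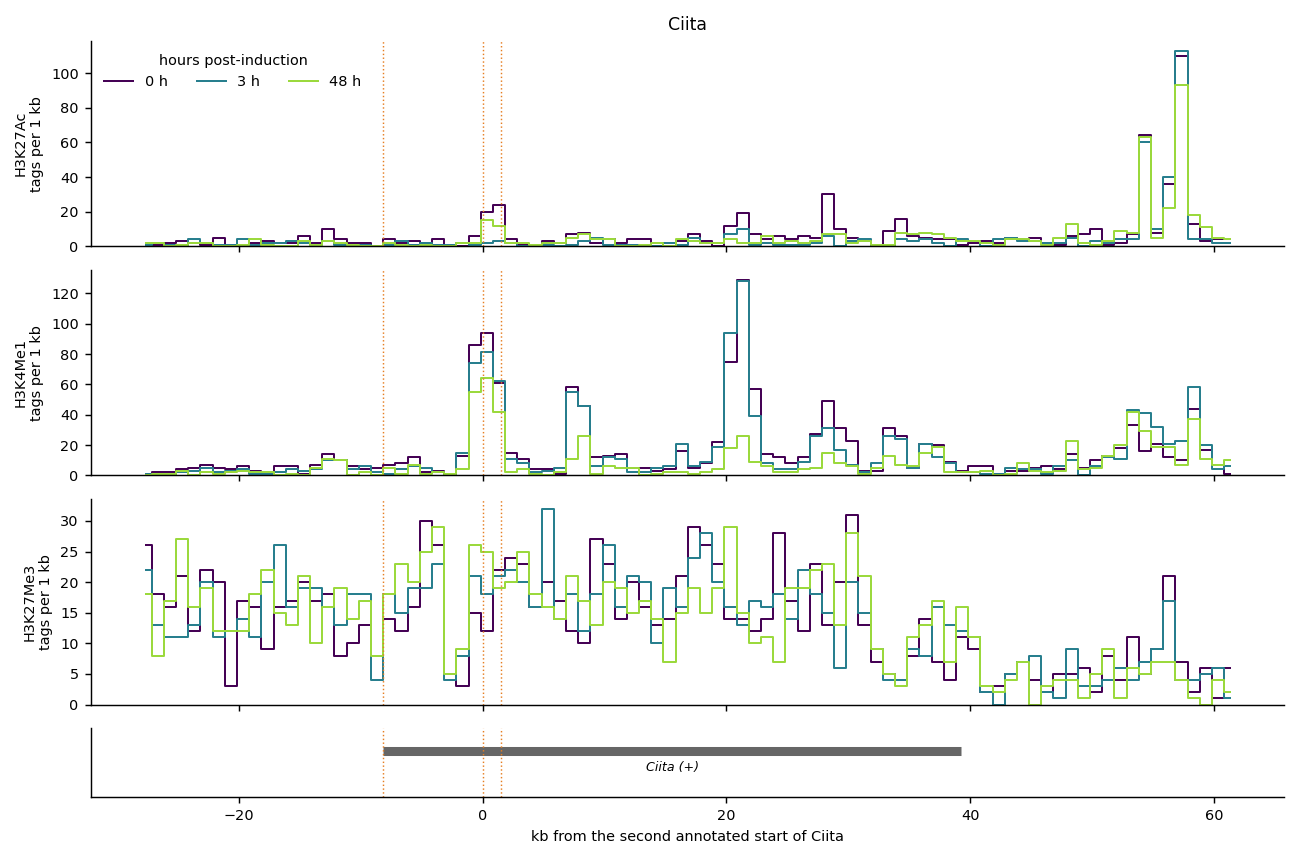
Tags per 1 kb along the Ciita locus at 0, 3 and 48 hpi for the 3 marks, against distance in kb from the second annotated start. Orange dotted lines mark the 3 annotated starts and the grey bar the gene. The H3K4Me1 peak inside the gene fell from 261 to 53 tags per 3 kb and the H3K27Me3 sum over the windows up to the end of the gene was 1090 tags at 0 h and 1126 at 48 hpi, with lower counts in the last 3 of these windows.

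At Cd74 (locus chr18:60943502-60994501, 17 windows) the window with the highest H3K27Ac count at each of the 5 times lay inside the gene. Centred 2.50 kb downstream of the start, it held 512 H3K27Ac tags at 0 h, 310 at 3, 569 at 12, 864 at 24 and 416 at 48 hpi, so it was highest at 24 hpi, and its change from 0 to 48 h was not called (log2 -0.30, and 0.11 with scaling by bins enriched at all times). The start itself was highest at 48 hpi, but with scaling by background bins it was highest at 24 hpi too, at 4.50 times its 0 h count against 3.03 times at 48 hpi. Within this locus the largest fold gain of H3K27Ac in a window without a member start was 6.50 kb upstream, from 8 tags to 21, 28, 66 and 43 (5.38-fold, log2 2.43, 1.32 to 3.73), with H3K4Me1 going from 31 to 30, 99, 121 and 106. Next to it, 9.50 kb upstream, H3K27Ac fell from 55 tags to 29, 23, 26 and 16 (3.44-fold), and 74.7% of 36-mers are unique in that window. In sum 5 windows were called higher and 5 lower for H3K27Ac (7.47% and 3.25% of the genome's windows), and the summed tags of the locus were 1580 at 0 h and 1588 at 48 hpi. Of the windows over the next gene, Tcof1, and not over Cd74, those called higher lay near Cd74 (28 to 56 and 17 to 39 tags, 11.5 and 14.5 kb downstream of its start) and those called lower farther away (53 to 24, 162 to 64 and 204 to 66 tags).

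**Figure D4:**
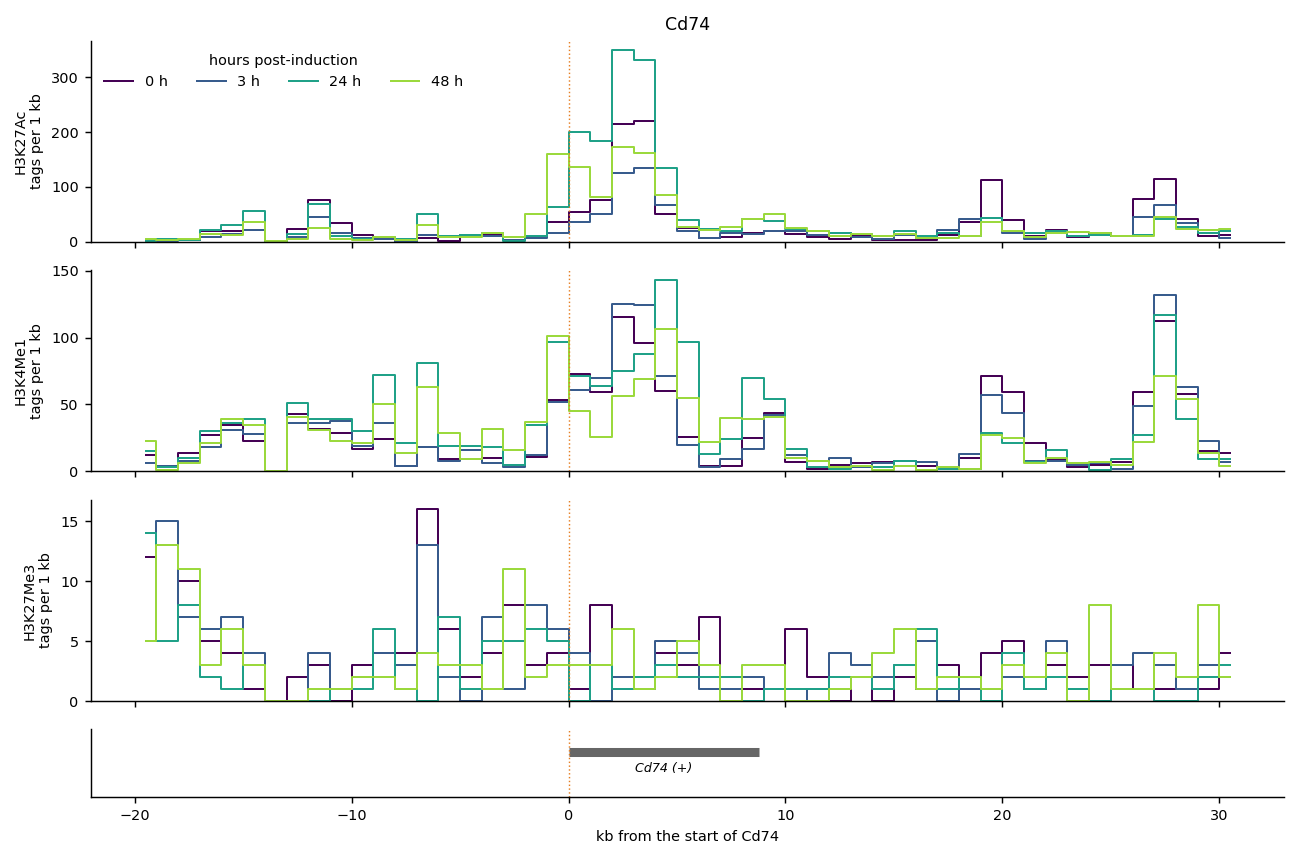
Tags per 1 kb along the Cd74 locus at 0, 3, 24 and 48 hpi for the 3 marks, against distance in kb from the start of the gene. The orange dotted line marks the start and the grey bar the gene. H3K27Ac at the start rose from 130 to 371 tags per 3 kb, and the larger peak inside the gene was highest at 24 hpi, with 864 tags per 3 kb.

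The locus of H2-Ab1, H2-Aa and H2-Eb1 (chr17:34380154-34473153, 31 windows) gained H3K27Ac and H3K4Me1 at the far end of H2-Eb1, while H3K27Ac was called lower at the starts of H2-Ab1 and H2-Aa. In the window 10.8 kb downstream of the H2-Eb1 start, over its last exons (chr17:34452154-34455153), H3K27Ac went from 13 tags to 14, 61, 168 and 111 (8.54-fold from 0 to 48 h, log2 3.09, 2.26 to 4.05). H3K4Me1 there went from 41 to 34, 115, 175 and 143 tags. The window before it, 7.83 kb downstream of the start, had 100, 84, 214, 248 and 165 H3K27Ac tags. At 3 hpi these windows held 14 and 84 tags, against 13 and 100 at 0 h, whereas the H2-Eb1 start had by then gone from 125 to 54.

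Within H2-Eb2, the neighbour of H2-Eb1, an intron window 22.8 kb downstream of the H2-Eb1 start showed the largest H3K27Ac loss of all locus windows with at least 30 tags and no member start, by the fold. It had 171 tags at 0 h, 269 at 3, 57 at 12, 61 at 24 and 29 at 48 hpi, 5.90-fold lower (log2 -2.56, -3.18 to -1.99). Its count at 3 hpi was above that at 0 h, whereas the H2-Eb1 and H2-Aa starts were called lower by then and the H2-Ab1 start had 137 tags against 127. Further along, 28.8 kb from the H2-Eb1 start, H3K4Me1 rose from 11 tags to 26, 64, 75 and 61 (5.55-fold). Over this locus 5 windows were called higher and 5 lower for H3K27Ac (7.47% and 3.25% of the genome's windows). For H3K4Me1 3 were called higher and 0 lower (5.71% and 5.02%). Some of the windows called higher for H3K27Ac held fewer tags than the mean of the genome at both times. With scaling by bins enriched at all times, 9 were called higher and 3 lower for H3K27Ac (9.66% and 4.54% of all gene starts). With scaling by background bins, 9 were called higher and 0 lower for H3K4Me1 (12.8% and 1.94% of all gene starts). H3K27Me3 was enriched in 3 of these 31 windows at 0 h, a share under the 14.0% of the genome, and in 6 at 48 hpi. The genome's share of windows at 48 hpi was not counted, and over all gene starts the share enriched was 16.5% at 0 h and 18.8% at 48 hpi. The highest H3K27Me3 counts of the locus lay between H2-Eb1 and H2-Eb2, where a window 13.8 kb downstream of the H2-Eb1 start held 54, 55, 82, 63 and 41 tags and the next one 67, 70, 99, 106 and 84.

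**Figure D5:**
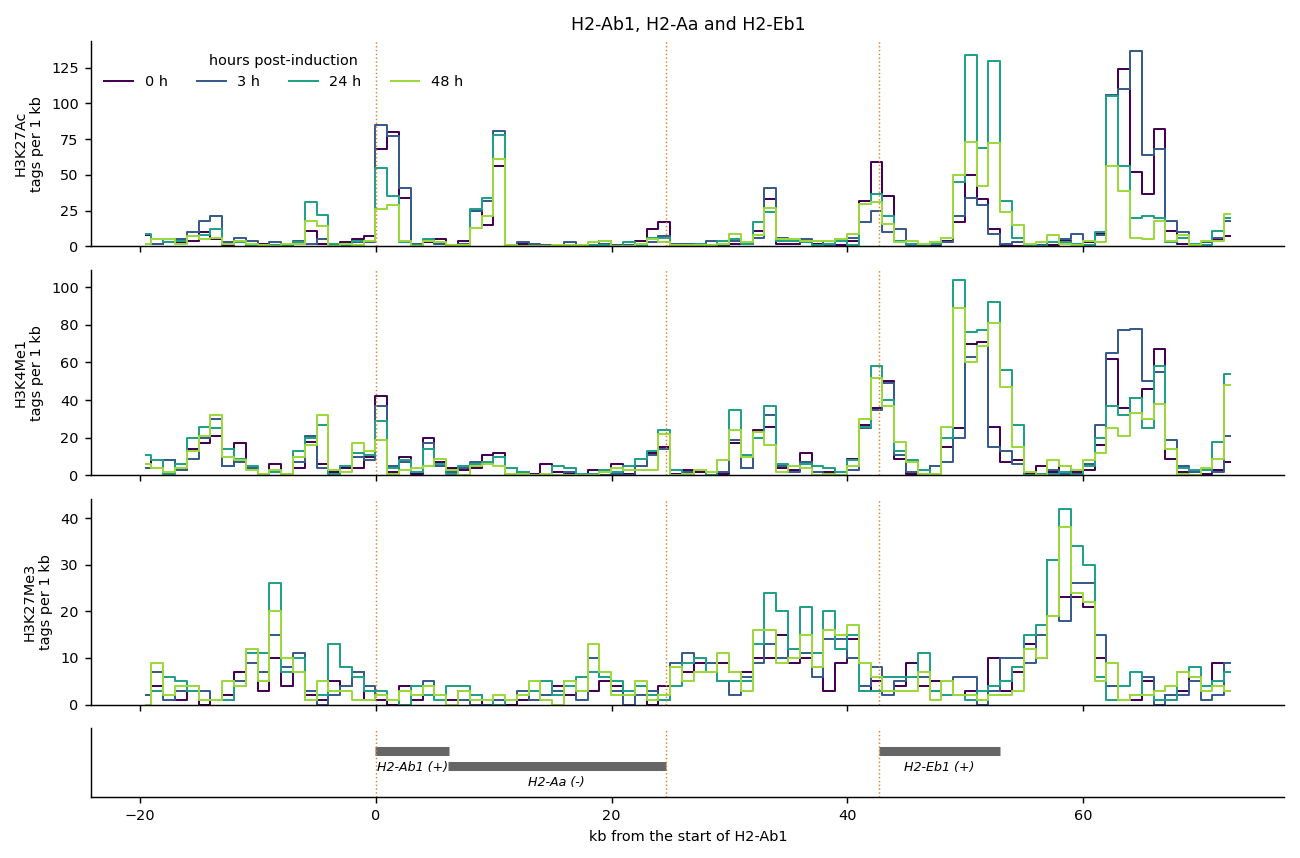
Tags per 1 kb along the locus of H2-Ab1, H2-Aa and H2-Eb1 at 0, 3, 24 and 48 hpi for the 3 marks, against distance in kb from the start of H2-Ab1. Orange dotted lines mark the 3 starts and grey bars the genes with their strand. The peak over the last exons of H2-Eb1 grew from 13 to 168 H3K27Ac tags per 3 kb at 24 hpi, while the one at the H2-Ab1 start shrank.

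Around H2-DMa and H2-DMb1 (chr17:34252127-34318126, 22 windows) the body of H2-DMb1 gained H3K4Me1 and, from few tags at 0 h, H3K27Ac. The 1 kb of the body with most H3K27Ac at 48 hpi had 7, 2, 17, 40 and 23 tags of it. A 1 kb bin was enriched at 16 H3K27Ac tags or more. In 3 kb at the start H3K27Ac went from 50 to 25. Over this locus 4 windows were called higher and 3 lower for H3K27Ac (7.47% and 3.25% of the genome's windows). The window 5.61 kb downstream of the H2-DMb1 start went from 6 H3K4Me1 tags to 5, 27, 58 and 55 (9.17-fold, log2 3.20, 1.98 to 4.70), and the window 3.39 kb upstream, over exons of H2-DMb2, from 10 to 5, 36, 56 and 41 (4.10-fold). In these windows 52.0% and 53.2% of 36-mers are unique, so many positions there could receive no tag. The window 9.50 kb upstream of H2-DMa rose from 33 H3K27Ac tags to 27, 59, 102 and 111 (3.36-fold, log2 1.75, 1.18 to 2.36). In the other direction, H3K4Me1 12.5 kb upstream of H2-DMa, over exons of Brd2, fell from 57 tags to 61, 33, 14 and 9 (6.33-fold).

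Calls of H3K27Ac and H3K4Me1 took up a larger share of the windows of the 4 loci than of the genome. From 0 to 48 h, H3K27Ac was called higher in 14 of 100 windows and lower in 17, against 7.47% and 3.25% of all 832530 mappable windows. For H3K4Me1 the counts were 10 higher and 19 lower (5.71% and 5.02%), and for H3K27Me3 3 higher and 4 lower (1.85% and 3.29%). From 0 to 3 h, H3K27Ac was called higher in 3 windows and lower in 13 (3.23% and 2.07%). Of these 13, 8 lay in the Ciita locus, most with counts under the enrichment cut-off at 0 h. The 4 loci are rich in genes and in tags, and a window with few tags can hardly meet the rule, so the shares are no test. From 0 to 48 h the split moved with the scaling, to 22 higher and 8 lower for H3K27Ac by bins enriched at all times, and to 27 higher and 8 lower for H3K4Me1 by background bins. Over all gene starts the same scalings gave 9.66% higher and 4.54% lower for H3K27Ac, and 12.8% and 1.94% for H3K4Me1. The genome's share of windows was not counted with these scalings. From 0 to 3 h, background bins gave 1 window higher and 25 lower for H3K27Ac (1.42% and 3.65% of all gene starts), with 8 of the 25 in the Ciita locus. Bins enriched at all times gave 4 higher and 9 lower (4.44% and 1.36% of all gene starts), with 5 of the 9 in that locus.

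In 5 lists of other genes of antigen presentation and of the control of Ciita, H3K27Ac was called lower at 16 of 32 starts and higher at 1 from 0 to 48 h, against 8.73% and 5.74% of all gene starts. With scaling by bins enriched at all times 8 of the 32 were called lower (4.54% of all gene starts). Of 6 other class II genes listed, 4 were annotated, and 3 of these were called lower and 0 higher from 0 to 48 h (median log2 -1.21). H2-Oa and H2-Ob, the chains of the DO molecule that restrains DM, fell from 143 to 65 and from 253 to 81 tags, and H2-Eb2 from 236 to 96. H2-DMb2 had 166 and 170 tags, with 78 at 3 hpi and 338 at 24 hpi. Of the 4 antigen processing genes, Lgmn, which codes for an asparaginyl endopeptidase, fell from 298 to 98 and Ifi30, a lysosomal thiol reductase, from 362 to 101, while Ctss, the protease that trims the invariant chain, had 232 and 199.

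Among the DNA-bound partners of CIITA, 2 of 7 were called lower (Creb1, 999 to 452 tags, and Nfyb, 446 to 208) and 0 higher. Rfx5 had 428 and 254 tags, Rfxap 262 at both times and Rfxank 371 and 267, none of them called. Of 9 annotated regulators of Ciita, 5 were called lower (median log2 -1.19). Among these were the B cell factor Pax5 (1331 to 354 tags), the interferon regulatory factors Irf4 (387 to 104) and Irf8 (526 to 230), and the repressor Prdm1 (288 to 90). Sfpi1, the gene of PU.1, had 1320 and 1182.

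Of 8 annotated genes of the class I pathway, 4 were called lower, the peptide transporter genes Tap1 (890 to 382 tags) and Tap2 (305 to 134) and the immunoproteasome genes Psmb8 (695 to 227) and Psmb9 (908 to 400). The start windows of Tap1 and Psmb9 overlap, so these are not separate observations. The class I gene H2-D1 was called higher, from 39 to 86 tags, but it has close relatives that share its sequence. With scaling by bins enriched at all times the counts called lower became 1 of 4 for other class II genes, 0 of 7 for the partners, 4 of 9 for the regulators, 2 of 4 for processing and 1 of 8 for class I. Of all gene starts, 4.54% were called lower with that scaling and 8.73% with total tags.

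For H3K4Me1 the calls in these lists were 2 of 4 lower for the other class II genes (H2-Ob, 55 to 25 tags, and H2-Eb2, 114 to 56), 1 of 7 lower for the partners (Rfxap, 44 to 17), 1 higher and 2 lower of 9 for the regulators, 1 of 4 lower for processing (Lgmn, 70 to 27) and 2 of 8 lower for class I (Tap1 and Psmb9). Among the regulators Pax5 rose from 19 to 64 tags, Irf2 fell from 25 to 8 and Sfpi1 from 373 to 176. In all, 8 of 32 starts were called lower and 1 higher, against 8.66% and 3.98% of all gene starts, and with scaling by background bins 0 were called lower and 2 higher (1.94% and 12.8% of all gene starts). H3K27Me3 was called at 0 starts of these lists in either direction, where 2.24% of all gene starts were called higher and 2.53% lower. With scaling by background bins 1 was called higher (4.20% of all gene starts). With scaling by bins enriched at all times 1 was called lower (3.26%).

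The genes whose pattern was most like that of 3 members were looked up over the 10 H3K27Ac and H3K4Me1 libraries among 10695 gene starts with at least 30 H3K27Ac tags on average. Likeness was the root mean square difference of log2 tags, centred within each mark. Ciita and H2-Aa did not themselves reach that average, so their H3K27Ac patterns rest on few tags. Nearest to Ciita was Pcdh9 (0.308), with 117, 38, 53, 48 and 96 H3K27Ac tags, followed by Gpr141 (0.369) and Sh3rf2 (0.373). Nearest to H2-Aa were Tmem119 (0.176), Arhgap25 (0.223) and Zfp715 (0.227), all with far higher counts. Nearest to Cd74 were A430084P05Rik (0.154), Cd1d1 (0.179), an antigen-presenting molecule for lipids that had 202, 157, 279, 504 and 568 H3K27Ac tags, and Dnajc5b (0.196). These genes were picked for their likeness, so it is a description.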

How the data were processed

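Positions of ChIP-seq tags in 15 libraries (3 marks, 5 times, 1 library each) were used as deposited. The authors had aligned 36 bp reads to mm9 with Eland or Bowtie without mismatches and kept unique alignments. The files hold no strand. Some had been reduced to 1 tag per position before deposit and others not, so 1 tag per position was kept in all, on chromosomes 1 to 19 and X, placed at the middle of its interval. Libraries were thinned with a fixed seed. Gene starts came from GENCODE vM1, and for Ciita alone, where the starts were counted apart, those within 500 bp were joined. Counting used Python 3.11.15, numpy 2.4.6 and scipy 1.17.1, and the call rule, intervals and cut-off were tested on simulated data. Domains were cut into 3 kb windows from their first base. Alternatives were no thinning, tags as deposited, another seed, 2 other scalings, other windows, starts, folds and cut-offs. Members and gene lists were chosen with earlier results of these data known. Named windows were the 3 largest gains and 3 largest losses of H3K27Ac and of H3K4Me1 with at least 30 tags and no member start, and named list genes were mainly those called. Other windows and genes were named after their values were seen, and 1 list gene is counted but not reported here by name. H2-Ea, H2-Ea-ps and Nlrc5 were not in the annotation used here.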

Additional observations from a re-analysis of the deposited data

How the results depend on the processing

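No paired analysis was possible because no mark had more than 1 library at any time, and for the same reason no library could be left out. Of 166 recomputed log2 changes of single members, 149 stayed within the 95% interval of the reported value and none of the called ones changed sign, and 134 of 174 recomputed counts and medians stayed near theirs. For H3K27Ac from 0 to 48 h, the 1 member called higher became 0 in 6 kb windows and at 3-fold, and the 3 called lower became 1 with scaling by bins enriched at all times and 1 at 3-fold. From 0 to 3 h, an interval recomputed after seeing the data, the 4 called lower became 2 in 6 kb windows and 1 at 3-fold. From 3 to 24 h, also recomputed after seeing the data, the 1 called higher became 6 with scaling by background bins and 2 without thinning, with tags as deposited, with another seed and in 1 kb and 6 kb windows, and the 0 called lower became 1 in 6 kb windows. For H3K4Me1, the 1 member called higher became 2 with scaling by background bins, where the median log2 change went from 0.087 to 0.86, and 0 at 3-fold, and the most upstream starts gave 1 called lower. For H3K27Me3, the 1 member called higher became 0 without thinning, with scaling by bins enriched at all times, in 1 kb and in 6 kb windows and at 3-fold, and 2 with no minimum difference. The 1 member enriched became 0 at a minimum of 4-fold over the mean at both times and in 1 kb windows at 0 h. Of the 100 locus windows, H3K27Ac was called higher in 22 and lower in 8 with scaling by bins enriched at all times (9.66% and 4.54% of all gene starts), and lower in 8 at 3-fold. H3K4Me1 was called higher in 27 and lower in 8 with scaling by background bins (12.8% and 1.94% of all gene starts), lower in 11 at 3-fold and in 33 with no minimum difference. H3K27Me3 was called higher in 0 without thinning and with another seed, in 1 with scaling by bins enriched at all times and at 3-fold, and in 9 with no minimum difference, and lower in 1 at 3-fold and in 9 with no minimum difference. A larger fold or a wider rule changes such counts by its construction, and otherwise the cause was not tested. Without replicates, the difference between libraries other than counting error is not known, and counts under about 30 tags, as at H2-Aa, H2-DMb1 and Ciita for H3K27Ac, have wide intervals.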
